A study of Rattus norvegicus with 13 samples.

Results

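Myoepithelial cells form the contractile outer layer of the mammary ducts and alveoli. They squeeze milk out of the gland when oxytocin reaches the oxytocin receptor on their surface. The receptor works through a G protein, phospholipase C and release of calcium, and calcium with calmodulin then activates myosin light chain kinase. The kinase phosphorylates the light chain of smooth muscle type myosin, which pulls on filaments of smooth muscle actin held by tropomyosin and calponin. The same proteins are made by the smooth muscle cells and pericytes of blood vessels, so their transcripts do not mark myoepithelial cells alone.

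The 10 genes described here encode this machinery and were chosen by symbol, with earlier results of these data known. They are the thin filament genes Acta2, Actg2, Tagln, Cnn1, Tpm2 and Lmod1, the myosin heavy chain Myh11, the regulatory light chain Myl9, the kinase Mylk and the receptor Oxtr. All 10 were present among the 14790 genes of the table, each with 1 record, and all met the minimum for testing (a mean of at least 1). RNA-seq was performed on mammary epithelial cells of Wistar-Furth rats, with 1 library per rat. Of the 13 rats, 6 were 6 weeks old (within the window of susceptibility, WOS) and 7 were 10 weeks old (outside WOS), and no other treatment or allele is given for either age. The cells were ductal fragments from the abdominal and inguinal glands, kept back by a filter after collagenase digestion. The study describes such fragments as mainly epithelial with some stromal fibroblasts and immune cells, so the values are a mixture over cell types. Whether an age had fewer cells of a type or less RNA per cell cannot be told apart.

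Expression is given as normalized counts, which are counts that the authors estimated per gene, multiplied by a factor for each library and rounded. Their total per rat was between 13261906 and 15659533 within WOS and between 13766735 and 15402814 outside WOS. In 7 rats some small whole numbers never occurred, with a spacing that gave factors from 1.13 to 2.06 and totals before scaling from 6896191 to 13631490. No such factor could be read for the other 6 rats, so their depth is unknown. Differences between the ages were fitted with limma, after a log2 transform of the normalized count + 1. This pseudocount understates the change of low genes. P-values were adjusted after Benjamini-Hochberg over all genes, and genes with an adjusted p under 0.05 are called DE. The log2 fold changes divide 6 weeks by 10 weeks, and a negative value means lower expression within WOS. Once each gene was centred within its age, the leading principal component of all genes outside the lists used here held 28.3% of the remaining variation and set 8 rats (4 of each age) apart from 5 (2 within WOS and 3 outside). No label names this division, and values from the 8 rats alone are given where they bear on a result. The lowest totals before scaling that could be read, in rats 80, 78 and 75 (6896191, 7149664 and 9557293), were all in the set of 5. Rat 81 of that set was at 11718774, and rats 74, 72 and 87 of the 8 were at 10712203, 12061697 and 13631490. How depth bears on the division was not tested. The labelled epithelial origin was checked against keratins. Krt14 and Krt5, of basal cells, had medians of 3105.5 and 1554 within WOS and 2699 and 1181 outside, and Krt8, of luminal cells, had 10407.5 and 11543.

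Acta2 encodes smooth muscle alpha actin, the most widely used marker of myoepithelial cells. Smooth muscle genes are known to be switched on by serum response factor, which binds a sequence named the CArG box, and this is the reason to show the Acta2 promoter. RefSeq promoters of GRCr8 were at hand for 6 of the 10 genes (Acta2, Actg2, Oxtr, Tpm2, Cnn1 and Mylk). The 250 bases before each start were searched on both strands for 2 C, 6 core bases and 2 G, with at most 1 of the core bases other than A or T. The Acta2 window, at chr1:241172504-241172753 on the minus strand, held 2 such boxes, shown in capitals.
Acta2: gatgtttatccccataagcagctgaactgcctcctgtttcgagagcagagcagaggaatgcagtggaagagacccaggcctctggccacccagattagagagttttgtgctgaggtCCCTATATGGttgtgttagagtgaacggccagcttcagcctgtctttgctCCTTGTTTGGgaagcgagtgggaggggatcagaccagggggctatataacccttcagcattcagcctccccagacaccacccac
The boxes begin 134 and 84 bases before the start, and each has 1 core base that is neither A nor T. Of 33469 promoters searched the same way, 8.08% held at least 1 such box and 0.693% held 2 or more. No box of this kind was found in the windows of Actg2, Oxtr, Tpm2, Cnn1 or Mylk. The strict form, with a core of A and T alone, was in 1.50% of promoters and in no window of the 6 genes. A match is a description of these letters and does not show that a factor binds there.

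Few of the contractile genes were DE between the ages. This does not show that the others were unchanged. The interval of the log2 fold change reached -0.79 for Acta2 and ran from -0.72 to 1.01 for Oxtr, and neither was DE. Of the 10 genes, 1 was DE with higher expression outside WOS (Cnn1) and 0 were DE with higher expression within WOS. Over all 14790 genes the corresponding shares were 7.39% and 8.71%, so the share of contractile genes called was close to the background. At an unadjusted p under 0.05 there were 2 genes, Cnn1 and Acta2, both with lower expression within WOS, beside 31.6% of all genes. The median log2 fold change of the 10 genes was -0.038, against 0.028 over all genes, and 4 of the 10 were above 0. No gene had all rats of one age above all rats of the other, where 6.07% of all genes did.

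**Figure D1:**
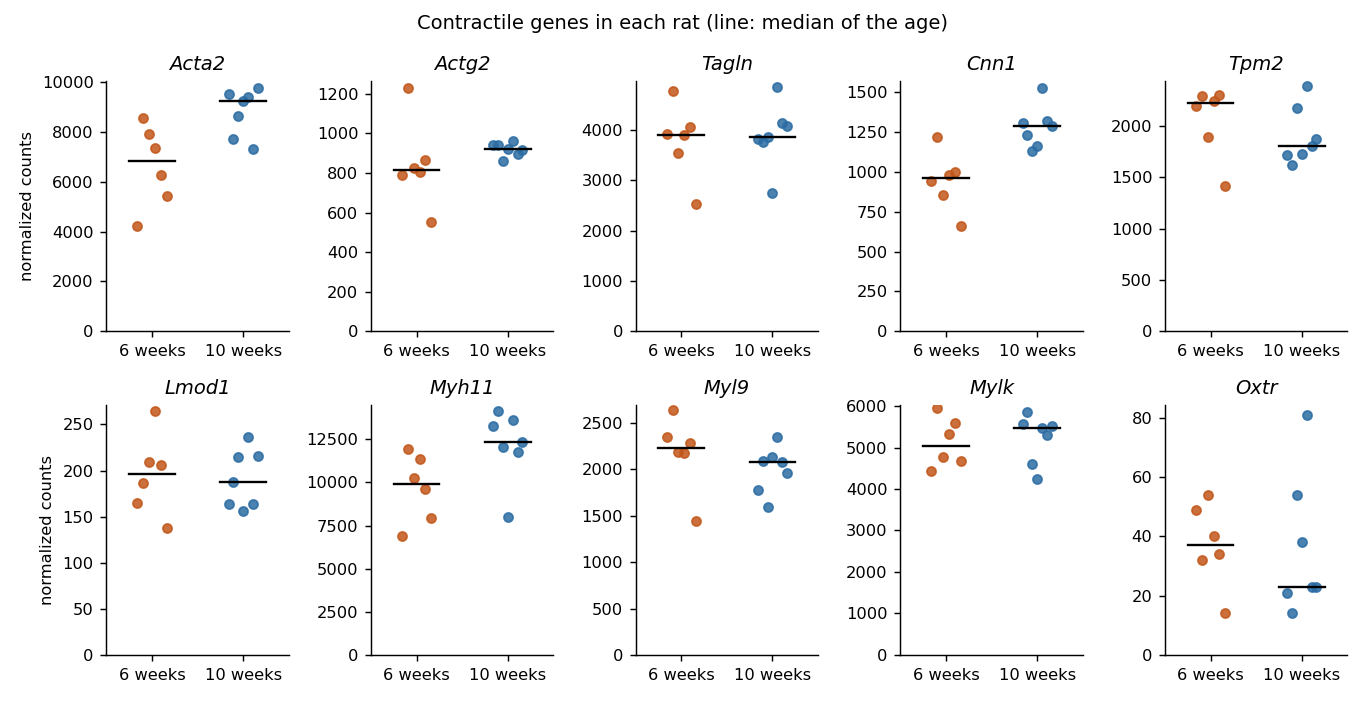
Normalized counts of the 10 contractile genes (y axes, each from 0) in each rat at 6 weeks (within WOS, orange) and 10 weeks (outside WOS, blue), with a line at the median of the age. The ages overlap for every gene, and 5 of the 6 young rats lie below all older rats for Cnn1.

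Among the thin filament genes, Cnn1 encodes calponin, an actin-binding protein that slows the myosin motor. Cnn1 was at 661 normalized counts in the lowest rat within WOS, with a median of 964.5 and a highest value of 1219, and at 1130, 1291 and 1528 outside WOS. In 5 of the 6 rats within WOS it was below every rat outside WOS, and rat 71 was the exception. The log2 fold change of Cnn1 was -0.46 (SE 0.13, 95% interval -0.75 to -0.17, adjusted p = 0.0357 in limma), or 0.728-fold. The call was close to the threshold: of the 13 fits that left out 1 rat, it was lost in 9 (without rat 70, 72, 74, 75, 83, 84, 85, 86 or 87), with log2 fold changes from -0.54 to -0.36 and adjusted p from 0.0204 to 0.0668. Scaling by library size gave -0.41 (adjusted p = 0.108), and the 8 rats alone gave -0.46 (adjusted p = 0.0924).

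Acta2 was measured at 4248 normalized counts in the lowest rat within WOS, 6826.5 in the median and 8581 in the highest, and at 7309, 9257 and 9782 outside WOS. All 6 rats within WOS were below the median outside WOS, and 3 of them were below every older rat. The log2 fold change was -0.44 (SE 0.16, 95% interval -0.79 to -0.095), and the adjusted p of 0.0780 missed the threshold. With sample quality weights in limma the adjusted p was 0.0462, and over the fits that left out 1 rat it was between 0.0525 and 0.156, the highest without rat 70. Actg2, the smooth muscle gamma actin, had a lowest value of 553, a median of 816.5 and a highest value of 1231 within WOS, and 859, 919 and 960 outside WOS. The older rats were close together, while 4 of the 6 young rats were below all of them and rat 71 was above all of them. Its log2 fold change of -0.16 (SE 0.15) had an adjusted p of 0.484.

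Tagln encodes transgelin, a small actin-binding protein of smooth muscle. Its median was 3902 (2529 to 4779) within WOS and 3860 (2739 to 4854) outside, so the ranges of the ages were nearly the same. Its log2 fold change was -0.047 with a 95% interval from -0.39 to 0.29. Tpm2, the beta tropomyosin that lies along the actin filament, had medians of 2222 within WOS and 1809 outside WOS. For this gene the direction of the medians was the opposite of that for Cnn1, but rat 86 within WOS, at 1418, was below every other rat, and the log2 fold change was 0.11 (SE 0.14, adjusted p = 0.635). Lmod1, leiomodin, which starts new actin filaments, had medians of 196 (138 to 265) within WOS and 188 (156 to 236) outside. Its log2 fold change of 0.013 had a 95% interval from -0.33 to 0.35.

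Myh11 is the heavy chain of smooth muscle myosin. It was at 6896, 9915 and 11953 (lowest, median and highest) within WOS and at 8019, 12323 and 14140 outside WOS. All 6 young rats were below the median of the older ones, but rat 81 outside WOS, at 8019, was among the lowest of all rats. The log2 fold change was -0.34 (SE 0.16, adjusted p = 0.172). Without rat 81 it was -0.44 and passed the threshold (adjusted p = 0.0497). In the 8 rats it was -0.53 (adjusted p = 0.0623), against -0.025 in the other 5.

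Myl9 encodes the light chain that is phosphorylated to start contraction. Its median was 2236 (1442 to 2638) within WOS and 2082 (1600 to 2347) outside, with a log2 fold change of 0.11 (SE 0.14, adjusted p = 0.626). The kinase that phosphorylates it, Mylk, had medians of 5046 and 5477 and a log2 fold change of -0.028 (SE 0.11). The 95% interval for Mylk ran from -0.27 to 0.21, the narrowest of the 10 genes. The Mylk locus also gives rise to a long non-muscle kinase and to a short protein without kinase activity, which values per gene do not separate.

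Oxtr, the oxytocin receptor, had low counts and the largest SE of the 10 genes. It was at 14, 37 and 54 normalized counts (lowest, median and highest) within WOS and at 14, 23 and 81 outside WOS. The ranges overlapped throughout, and rat 83 outside WOS held the highest value. Its log2 fold change was 0.15 (SE 0.40, adjusted p = 0.827). The 95% interval was wide, from -0.72 to 1.01, and includes changes in either direction.

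The same few rats held the extremes of many genes. Within WOS, rat 86 was lowest for 7 of the 10 genes and rat 70 for the other 3 (Acta2, Myh11 and Mylk), while rat 71 was highest for 7. Outside WOS, rat 83 was highest for 7 of the genes and rat 81 was lowest for 4. Without rat 86 the median log2 fold change of the 10 genes was 0.030, and without rat 81 it was -0.10. Library size scaling also moved this median above 0, to 0.0099, and it moved the median of all genes from 0.028 to 0.074.

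The contractile genes were next set against a keratin of the basal cells in the same rat, so that a shared change in the amount of basal RNA cancels. Relative to Krt14, 0 of the 10 genes were DE in either direction, and 1 had an unadjusted p under 0.05, as did 14.6% of all genes. Over all other genes 1.83% were DE with a higher ratio within WOS and 0.487% with a higher ratio outside WOS. The log2 difference of the ratio to Krt14 was largest for Cnn1, at -0.61 (SE 0.24, adjusted p = 0.249), followed by Acta2 at -0.59 and Myh11 at -0.49. For Oxtr it was -0.0011. The median was -0.19, against -0.12 over all genes. It was -0.046 without rat 70 and -0.29 without rat 86 (-0.0028 and -0.29 over all genes), and with Krt5 in place of Krt14 it was -0.36 (-0.29 over all genes). Acta2 alone was at -0.34 without rat 70. The ratio of Acta2 to Krt14 was 0.873 to 3.18 within WOS and 2.38 to 4.27 outside, and the ratio of Cnn1 to Krt14 was 0.194 to 0.387 and 0.305 to 0.602. Both ratios therefore overlapped between the ages.

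Relative to Rgs5, a marker of pericytes, 4 of the 10 genes were DE with a higher ratio outside WOS and 0 with a higher ratio within WOS. The same was true of 31.4% and 2.03% of all other genes, and Rgs5 itself had a log2 fold change of 0.55 (adjusted p = 0.0534). The log2 differences of the ratio were -1.01 for Cnn1, -0.99 for Acta2, -0.89 for Myh11 and -0.71 for Actg2. The call of Actg2 was lost in 8 of the 13 fits that left out 1 rat (without rat 70, 72, 74, 75, 80, 81, 83 or 86), and without rat 85 a total of 8 genes were called, in a fit where 48.7% of all genes were. With 4 of 10 beside a background of 31.4%, the ratio to Rgs5 does not set the contractile genes apart from other genes.

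**Figure D2:**
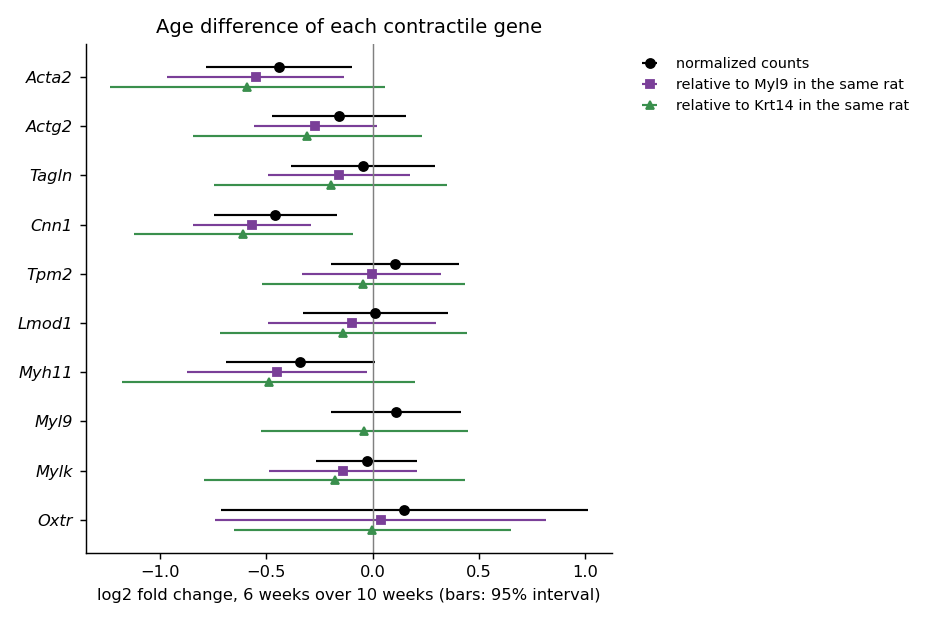
Log2 fold change (x axis, 6 weeks over 10 weeks) of each contractile gene as normalized counts (black), relative to Myl9 (purple) and relative to Krt14 (green) in the same rat, with 95% intervals as bars. Cnn1, Acta2 and Myh11 lie to the left on all 3 scales, and Tpm2, Lmod1 and Oxtr lie near 0.

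The ratio of Cnn1 to Myl9 was also compared. This reference was chosen after the per-rat ratios were seen, so the p-values below are descriptive. The ratio of Cnn1 to Myl9 was 0.392, 0.445 and 0.462 (lowest, median and highest) within WOS and 0.545, 0.651 and 0.732 outside WOS. Every rat within WOS was below every rat outside WOS, and so the rats of each set were separated too. The log2 difference was -0.57 (SE 0.13, adjusted p = 0.0189 in limma), which makes Cnn1 the 1 gene of 9 that was DE, with a higher ratio outside WOS. The shares over all other genes were 2.43% for a higher ratio outside WOS and 3.31% for a higher ratio within WOS, and 2.52% did not overlap in either direction. When 1 rat was left out, the call was lost without rat 70 (adjusted p = 0.0547) and without rat 84 (adjusted p = 0.0509), and it remained in the other 11 fits. Cnn1 was also set against each of the other 9 contractile genes, with no test. Its ratio had a lower mean log2 within WOS for all 9. That outcome was fixed, because Cnn1 had the lowest log2 fold change of the contractile genes, and it is no further result. The ratio of Cnn1 did not overlap between the ages for 3 (Myl9, Tagln and Actg2). Over Tagln, which encodes another actin-binding protein, it was 0.241 to 0.261 within WOS and 0.293 to 0.425 outside. Over Actg2 it was 0.990 to 1.22 and 1.27 to 1.59, and over Acta2 the medians were nearly the same, at 0.138 and 0.137. The ratio of Acta2 to Myl9 was 1.81, 3.32 and 3.77 within WOS and 3.51, 4.34 and 5.42 outside WOS. It overlapped between the ages, with a log2 difference of -0.55 (SE 0.20, adjusted p = 0.110). Tpm2 and Oxtr had log2 differences of -0.0043 and 0.039 from Myl9.

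**Figure D3:**
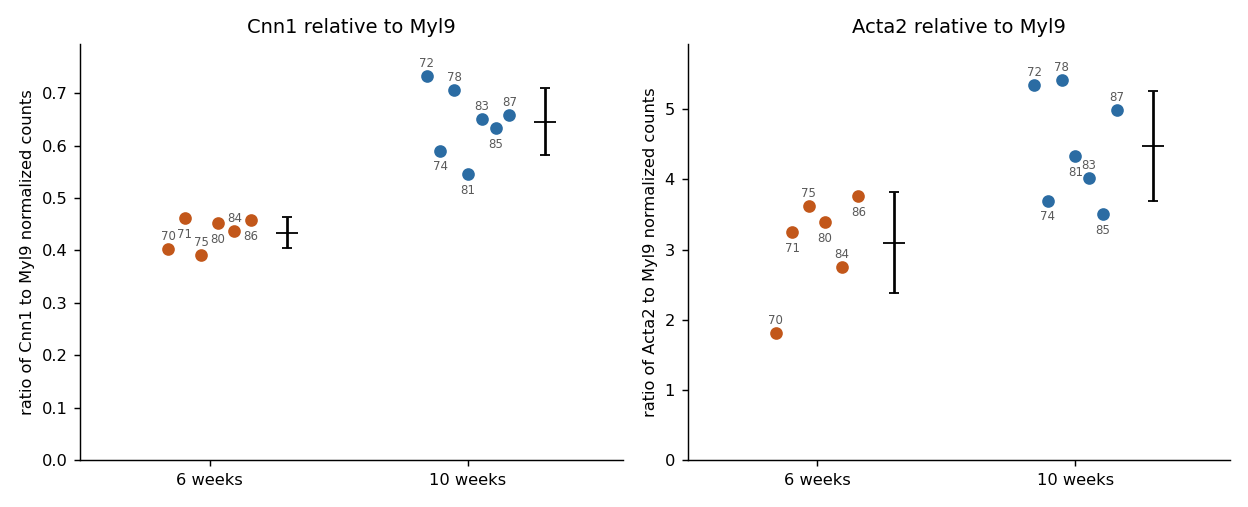
Ratio of Cnn1 (left) and of Acta2 (right) to Myl9, as normalized counts in the same rat (y axes from 0), with each rat's number beside its point and the mean and SD of the age as bars. For Cnn1 the 6 young rats lie between 0.392 and 0.462 and all older rats above 0.54, while the ages overlap for Acta2.

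Other genes of contraction were taken from 6 lists by role, of which 89 genes were in the table. Of these, 5 were DE with higher expression within WOS and 7 with higher expression outside WOS, beside the 8.71% and 7.39% of all genes. Their median log2 fold change was -0.056. Among them, Rgs2 and Itpr2 of oxytocin and calcium signalling had the lowest adjusted p. In that list, 1 of 20 genes was DE with higher expression within WOS and 2 outside, beside the same shares of all genes. The median log2 fold change of the list was 0.016. Rgs2, which shortens signals of the G protein that the oxytocin receptor uses, was at 1092, 1275 and 1524 (lowest, median and highest) within WOS and at 2096, 2986 and 3650 outside WOS. Itpr2, a calcium release channel opened by inositol trisphosphate, was at 963, 1089 and 1404 within WOS and at 1750, 1903 and 2203 outside. For both genes every young rat was below every older rat, where 6.07% of all genes did not overlap in either direction. The log2 fold changes were -1.14 (SE 0.14, adjusted p = 0.000262 in limma) for Rgs2 and -0.82 (SE 0.11, adjusted p = 0.000490) for Itpr2. Both remained DE in all 13 fits without 1 rat. Of the 20 genes in the table for oxytocin and calcium signalling, 17 were not DE, among them the G protein subunits Gnaq (log2 fold change 0.051) and Gna11 (-0.0034) and the channel Itpr1 (-0.21). The remaining gene was 1 of 2 records of calmodulin Calm2 (ENSRNOG00000016770, 0.86, adjusted p = 0.0278), a call lost without rat 70, 71, 74, 84 or 87. The other record (ENSRNOG00000030871) was at 0.19 (adjusted p = 0.439), and near-identical copies can divide reads between such records.

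On the side of relaxation, 2 of 13 genes of myosin phosphatase and its regulators were DE, both higher outside WOS, beside 7.39% of all genes. Rock2, a kinase that restrains the phosphatase, had medians of 5352.5 within WOS and 7220 outside (log2 fold change -0.52, SE 0.14, adjusted p = 0.0278). Ppp1r12b, a subunit that directs the phosphatase to myosin, had medians of 801.5 and 1097 (-0.48, SE 0.13, adjusted p = 0.0257). For each of these genes 5 of 6 young rats were below all older rats. Each call was lost without rat 70, 72, 74, 84 or 87. The related Rock1 (-0.17) and Ppp1r12a (-0.32, adjusted p = 0.0911) were not DE.

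Of 20 other genes of the thin filament and actin crosslinking, 1 was DE. Over all genes 8.71% were higher within WOS and 7.39% higher outside. Pdlim5, which ties signalling proteins to the actin network, was higher outside WOS, with medians of 2251 within and 3343 outside (log2 fold change -0.53, SE 0.12, adjusted p = 0.0131). The non-muscle actins Actb and Actg1 had log2 fold changes of -0.021 and -0.50 (adjusted p = 0.0648), and the tropomyosin Tpm1 had -0.041. Among 6 other myosin genes, Myh10, a non-muscle heavy chain, was higher within WOS, with every young rat (864 to 1105) above the highest older rat (799) and a log2 fold change of 0.44 (SE 0.10, adjusted p = 0.0131). Myh9, the other main non-muscle chain, was listed at 0 in rat 80 and reached 10102 outside WOS, and its log2 fold change of -2.25 had an SE of 1.77.

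The dense plaques, where actin is anchored to the membrane, were represented by 16 genes. The shares of all genes to set beside the calls below were 8.71% higher within WOS and 7.39% higher outside. Vim (0.65, adjusted p = 0.00517), an intermediate filament of mesenchymal cells, and Itga5 (0.63, adjusted p = 0.0484), a fibronectin receptor subunit, were higher within WOS. Synm (-0.52, adjusted p = 0.0358), a partner of desmin and vimentin, was higher outside WOS. The call of Vim remained in all 13 fits without 1 rat. Those of Itga5 and Synm were lost in 10 and 8 of them. Among 14 regulators of smooth muscle transcription, Srf (0.086) and its partner Myocd (-0.071) were not DE, and 1 gene, Fhl2, a LIM domain co-factor, was higher within WOS (0.73, adjusted p = 0.0372). The call of Fhl2 was lost in 8 of the 13 fits.

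**Figure D4:**
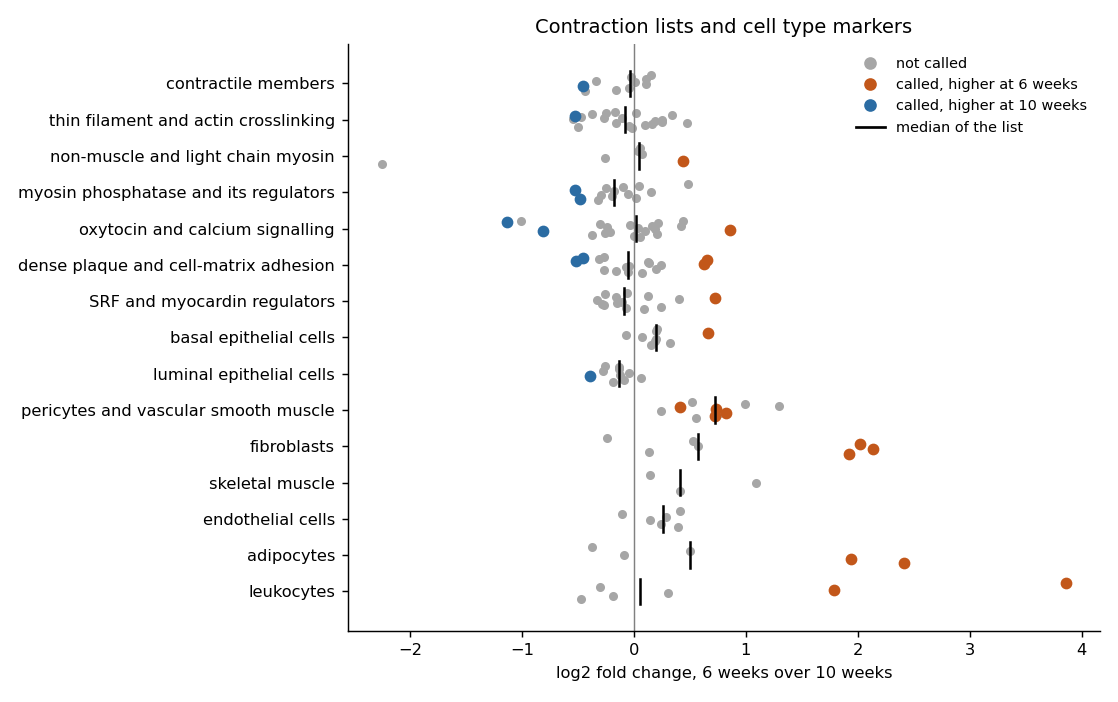
Log2 fold change (x axis, 6 weeks over 10 weeks) of each gene of the contractile genes, of the 6 contraction lists and of the 8 lists of cell type markers (rows). Grey points were not DE, orange were DE with higher expression within WOS, blue were DE with higher expression outside WOS, and the black line is the median of the list. The contractile genes and contraction lists lie around 0, while markers of pericytes and fibroblasts lie to the right.

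Since contractile genes are shared with vessels, the markers of the cell types in the fragments are given beside them. Over all genes 8.71% were DE with higher expression within WOS and 7.39% with higher expression outside. Of 9 basal markers in the table, 1 was DE: Cdh3, P-cadherin, was higher within WOS (0.66, adjusted p = 0.0213). In all, 8 of the 9 had a positive log2 fold change (median 0.20), and Itga6, with the highest normalized counts of the 9, was at -0.068. The summed basal markers had a range of 16725 to 25573 within WOS and 18815 to 27114 outside. Of 10 luminal markers, Epcam was higher outside WOS (-0.39, adjusted p = 0.0454), a call that was lost in each of the 13 fits without 1 rat. For the luminal markers the sums were 21921 to 40406 and 29966 to 46812.

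Markers of pericytes and vascular smooth muscle went the other way from Cnn1. Of 10 such markers 4 were DE (Pdgfrb, Cspg4, Abcc9 and Mcam), all higher within WOS, beside 8.71% of all genes. All 10 had a positive log2 fold change, with a median of 0.73. Their sum was 6260 to 9149 within WOS and 3609 to 5578 outside, so the ages did not overlap. Pdgfrb and Abcc9 remained DE in each of the 13 fits that left out 1 rat, and Cspg4 and Mcam did not. The part of vessel cells in the levels of the contractile genes was not tested.

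Of 7 fibroblast markers 3 were DE, all higher within WOS (Col1a1 1.92, Col3a1 2.14 and Lum 2.02). For this list and those below, the share of all genes higher within WOS was 8.71%. The sum of the list was 106623 to 222446 within WOS and 19573 to 55796 outside, most of it from the collagens Col1a1 and Col3a1. The other markers were not DE, with log2 fold changes of 0.57 for Dcn, 0.52 for Dpt, 0.13 for Pdgfra and -0.24 for Fbln1. Skeletal muscle markers were at or near the limit of the table, with 3 of 10 present (Acta1, Myh2 and Tnnt3) and a sum of at most 73 normalized counts in any rat. In limma 0 of these 3 were DE, and Myh2 (1.09) had an unadjusted p under 0.05. Of 6 endothelial markers, 0 were DE in limma, and 1 had an unadjusted p under 0.05 (Cdh5, with a log2 fold change of 0.40), while Kdr was at 0.24 and Tek at 0.15. Of 5 adipocyte markers 2 were DE (Adipoq and Plin1, both under 60 normalized counts and higher within WOS), while Fabp4 (-0.090) and Lipe (-0.38) were not, and the sum of the list was 1645 to 2492 within WOS and 1799 to 2881 outside. Of 6 leukocyte markers 2 were DE (Cpa3, of mast cells, and Cd79b, of B cells), both higher within WOS. How these cell types bear on the contractile genes was not tested.

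Within an age, most pairs of contractile genes had a positive correlation from rat to rat. With each gene centred within its age, the 45 pairs of the 10 genes had a median Pearson r of 0.53 over 13 rats, and 43 of the pairs had a positive r. By permutation within age, 7 pairs had a Benjamini-Hochberg adjusted p under 0.05 over the 45 by Pearson's r, and 1 pair by Spearman's rho. That pair was Tagln with Cnn1 (r = 0.89, permutation p = 0.000330, adjusted p = 0.0148, rho = 0.87, adjusted p = 0.0274). Without the 2 rats farthest from the median of Tagln it had an r of 0.92, and in the 8 rats an r of 0.98. For each pair these 2 rats were picked by the gene that comes first in the opening list. Rats far out for the other gene alone stayed in. The pair of Myh11 with Mylk had an r of 0.84 (permutation p = 0.000800, adjusted p = 0.0180) and a rho of 0.79 (adjusted p = 0.0610), while Mylk with Myl9, the light chain it phosphorylates, had an r of 0.36 (adjusted p = 0.366). Without the 2 farthest rats, the r of the 6 pairs other than Tagln with Cnn1 was between 0.50 and 0.69. Oxtr followed Tpm2 (r = 0.78, rho = 0.71) but not Myh11 (r = -0.03) or Mylk (r = -0.30). Cnn1 with Myl9 had an r of 0.85, which dropped to 0.58 without the 2 rats farthest for Cnn1. All genes of a rat share its library and scaling, and under library size scaling the median r was 0.62. In the main scaling, without the 2 rats farthest for the first gene of each pair, the median r was 0.42. Pairs of other genes were not examined, so these values do not set the contractile genes apart.

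**Figure D5:**
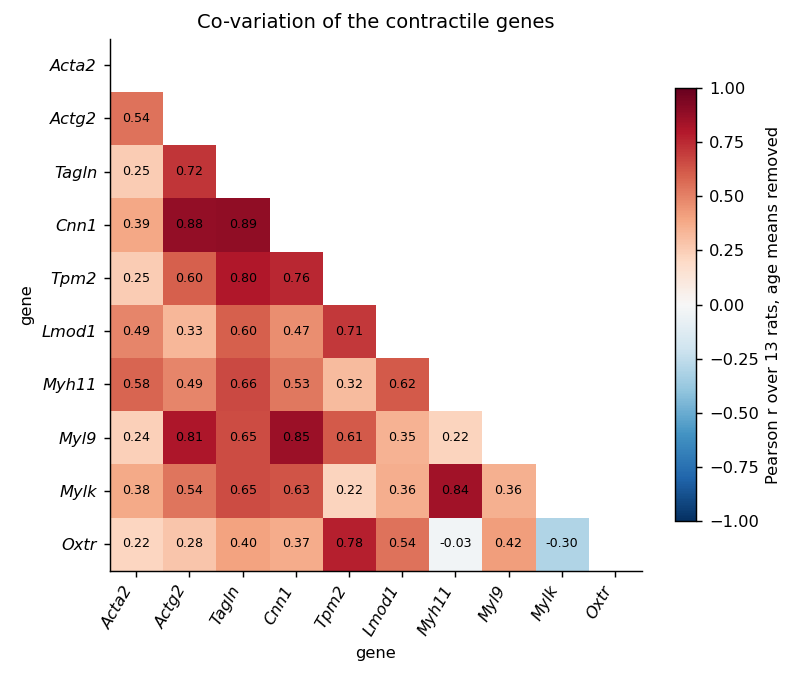
Pearson r (colour and number) for each pair of contractile genes over 13 rats, as log2(normalized count + 1) centred within each age. Most pairs are positive, with the highest r of 0.89 for Tagln with Cnn1, and Oxtr with Mylk is the lowest at -0.30.

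For Acta2, the relations were tested as a family of their own. In a family of 18 relations with Acta2 (the other 9 contractile genes and markers of basal cells, luminal cells, pericytes and fibroblasts), none passed the adjustment. The highest was with Myh11, with r = 0.58 (permutation p = 0.0516, adjusted p = 0.807) and rho = 0.66 (permutation p = 0.0297, adjusted p = 0.535). Without rats 70 and 85, the farthest from the median of Acta2, this r was 0.39, and in the 8 rats it was 0.83. Without the same 2 rats the r with Acta2 was higher for Actg2 (0.54 over 13 rats, 0.73 without), Cnn1 (0.39 and 0.67), Myl9 (0.24 and 0.61) and Tagln (0.25 and 0.54), so these values depend on few rats. For Krt14, Rgs5 and Col1a1 the r with Acta2 over 13 rats was -0.068, 0.085 and 0.19, and it was 0.40, 0.54 and 0.32 without rats 70 and 85.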

How the data were processed

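RNA-seq values of 13 rats were used as deposited. Counts were estimated by the authors with RSEM 1.2.22 (per the labels, which name rn5, while the paper names rn6 for its chromatin maps, and the annotation is not stated), multiplied by a factor for each library and rounded. The unit of these deposited values is therefore taken as a score, here called normalized counts. All 13 columns of rats were used. Beside them the deposited table has the authors' own comparison by edgeR (log2 fold changes, log2 mean abundances, likelihood ratios as a score, p-values and false discovery rates) and a location word for each gene. None of these columns was used here.

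Ages were compared with limma 3.58.1 in R 4.3.3 on log2(value + 1), for the 14790 genes with a mean of at least 1 (all genes), with no covariate, two-sided. A count model was not fitted, since scaled and rounded values are no longer counts. For ratios, the log2 value of the reference gene of the same rat was subtracted from every gene. Correlations used 100000 permutations within age with scipy 1.17.1, numpy 2.4.6 and pandas 2.3.3 under Python 3.11.15. On simulated data of the comparison by age over 14790 genes, the test recovered 50 of 100 genes changed by log2 1 and 82 of 100 changed by log2 2, and 11 of 143 calls were false. Depth is unknown for 6 rats, and precision at low counts differs between rats. The labels do not say how rats relate beyond their numbers, so p-values measure the spread between these rats.

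The contractile genes, lists and tests were chosen with earlier results of these data known. Named genes were all 10 contractile genes, the first 3 markers of a list, up to 4 DE genes per direction and list, and the 8 genes most like the contractile genes. Others were named after their values were seen, and 1 gene that is counted in a list is not reported here. Alternatives were other scalings, 0.1 as the pseudocount, only genes at 10 or more in every rat, limma-trend, sample quality weights, the residual component as a term, each set of rats alone, Krt5 and Pdgfrb as references and each rat left out. Myl9 as a reference, and the ratios of Cnn1 to the other contractile genes, were chosen after seeing the data. Promoters are from RefSeq (GRCr8). Transcript lengths were not at hand, so values of different genes, and sums over genes, are not corrected for length. Chromatin data were not analysed here.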

Additional observations from a re-analysis of the deposited data

Results flagged for a closer look

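In groups of 6 or 7 rats, a value was set aside for a closer look where its gap to the nearest other rat was large against the range of the group (Dixon's 95% limit). Of 78 groups examined, 3 had such a value, and chance gives about 1 in 20. Myh11 in rat 81 outside WOS was at 8019 normalized counts, far below the other older rats. The ratio of Actg2 to Myl9 in rat 71 within WOS was 0.467, above the other young rats. The ratio of Tpm2 to Myl9 in rat 78 outside WOS was 1.36, above the other older rats, and the cause of these values was not tested.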

How the results depend on the processing

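The number of contractile genes DE with higher expression outside WOS was 1 in the main comparison and 0 under library size scaling. It was 2 with sample quality weights, 0 in the set of 8 rats and 0 in the set of 5. When 1 rat was left out it was between 0 and 2 (2 without rat 81, where 8.24% of all genes were higher outside). Relative to Rgs5 it was between 3 and 8 without 1 rat (8 without rat 85, where 48.7% of all genes were called) and 7 with Pdgfrb in place of Rgs5 (49.6% of all genes). Relative to Myl9 it was between 0 and 2 without 1 rat. The 2 were called without rat 86, where 13.4% of all genes were higher outside, against 2.43% in the main comparison to Myl9. Among the other contraction genes, those higher within WOS numbered 10 with weights, 2 in the 8 rats, 0 in the 5 rats and between 2 and 5 without 1 rat (2 without rat 70 or 87). Those higher outside WOS numbered 21 with weights, 13 with the residual component as a term, 14 in the 8 rats, 0 in the 5 rats and between 3 and 12 without 1 rat (3 without rat 70, 72, 74, 84 or 87, 12 without rat 81). Pericyte markers higher within WOS numbered 7 with weights, 2 in the 8 rats, 0 in the 5 rats and between 2 and 4 without 1 rat. Over all genes, 20.3% were higher within WOS and 17.8% higher outside with weights, 13.4% and 10.1% in the 8 rats, and 12.7% and 11.2% with the residual component. The set of 5 rats holds few rats of each age, and its counts of 0 say nothing about stability.

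Several log2 fold changes close to 0 changed sign. Under library size scaling Mylk was at 0.020 and Tagln at 6.96e-05. With weights Tagln was at 0.049 and Actg2 at 0.0068. In the 5 rats Mylk was at 0.087, Krt14 at -0.29, Oxtr at -0.24, Tpm2 at -0.0092 and Krt5 at -0.016. Lmod1 was at -0.0075 under median-ratio scaling and -0.081 in the 8 rats. Without 1 rat, the ranges crossed 0 for Mylk (-0.077 to 0.013), Oxtr (-0.032 to 0.40), Tagln (-0.13 to 0.064) and Lmod1 (-0.081 to 0.11). They also did relative to Krt14 for Oxtr (-0.17 to 0.14), Tpm2 (-0.14 to 0.062), Myl9 (-0.099 to 0.062) and Lmod1 (-0.26 to 0.033), and relative to Myl9 for Oxtr (-0.15 to 0.23) and Tpm2 (-0.052 to 0.082). The cause was not tested. Cnn1 was below 0 in every alternative run. No paired analysis was possible because the ages share no replicate numbers.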

Other observations

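The genes most like the contractile genes from rat to rat were ranked among 8849 genes with a mean of at least 100, by the Pearson r with the mean standardised level of the 10 genes centred within each age. Over 13 rats the 8 highest were Flna (r = 0.89), Usp10 (0.89), Tns3 (0.88), Ltbp2 (0.86), Nfe2l1 (0.86), Gprc5a (0.85), Ankh (0.85) and Actn1 (0.85). Flna and Actn1 encode filamin A and alpha-actinin 1, which crosslink actin filaments, and Tns3 encodes a tensin of adhesion sites. Spearman's rho was 0.90 for Flna, 0.90 for Tns3 and 0.85 for Actn1, but 0.64 for Nfe2l1 and 0.69 for Usp10. Without the 2 rats farthest from the median, r was 0.86 for Flna and 0.87 for Actn1 and 0.64 for Tns3. These are values of a ranking over many genes and carry no p, and all genes of a rat share its library. By age Flna was nearly level (log2 fold change 0.018, adjusted p = 0.913 in limma), Gprc5a was higher within WOS (0.71, adjusted p = 0.00684) and Tns3 was higher outside WOS (-0.35, adjusted p = 0.0300).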
